A study of Zea mays with 22 samples.

Results

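Maize (Zea mays) was exposed to UV-B for 4 h at an irradiance that the titles call medium, and its RNA was set against RNA of unexposed controls on 2 of the 22 two-channel spotted arrays of the study. The 2 arrays were chosen by their titles. On array 1 the UV-B RNA was in channel 1 and on array 2 the control RNA was in channel 1, so the channels were exchanged between them. The other regimes used here for comparison, each with 2 arrays wired in the same pair of ways, were UV-B for 2 h at high, 8 h at low and 8 h at high irradiance, each against a control. The titles call the set a reciprocity experiment, that is, one that asks whether the response follows the product of irradiance and time. The labels give no irradiance value, organ, plant age or genotype for these arrays, and no number of plants. They do not say whether the 2 arrays carried separate RNA extracts or whether regimes shared control RNA. The spread behind the p-values, pooled over the arrays of all 4 regimes and largely shared across probes, may thus be technical.

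UV-B is the short-wave part of sunlight that reaches the ground. In Arabidopsis it is perceived by the photoreceptor UVR8, which acts through the E3 ligase COP1 and the transcription factor HY5 to switch on genes of flavonoid synthesis and DNA repair. Strong UV-B also damages DNA, protein and the photosynthetic apparatus, and genes of defence, protein folding and detoxification are commonly part of the response in leaves. Growth, including cellulose deposition in the wall, is commonly reduced.

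A probe is the mean of 3 neighbouring spots, and its value is a log2 ratio after the median of the array was set to 0, so that 1.00 stands for a doubling. A positive ratio is taken to mean more transcript in UV-B treated than in control plants. The files do not state the direction, so this reading is an assumption, and if it is wrong for the set, rises and falls exchange throughout. The reading also assumes that values of arrays with control RNA in channel 1 were already turned to this direction when deposited. If they were not, the means and the calls below change, and not only their signs. Of 17296 spots, 15782 on array 1 and 15771 on array 2 held a value (91.2% each). The median SD among the 3 spots of a probe was 0.0408 and 0.0428. Of 5760 probes, 5309 had a value on both arrays, and 380 of these carried a gene name, for 312 genes. Gene names follow the array annotation, and unnamed probes are given as block and position (probe 1_4 is the probe in block 1 at position 4). No level could be read from the ratios, so no tissue could be checked by its markers.

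The response at 4 h medium was small. On array 1 99.4% of probes, and on array 2 97.2%, lay within 0.5 of 0, and the median size of a mean ratio was 0.0925 over all probes and 0.0907 over named probes. The SD of the mean ratios over probes was 0.149, against 0.331 at 2 h high, 0.201 at 8 h low and 0.208 at 8 h high. Taking 1.5-fold or more on both arrays as a description, 5 probes were higher (0.0942%) and 2 lower (0.0377%) at 4 h medium. The same count was 275 and 4 at 2 h high, 3 and 0 at 8 h low, and 34 and 14 at 8 h high. At 2-fold on both arrays 3 probes were higher (0.0565%) and 0 lower at 4 h medium. The higher probes in these 4 h medium counts include pairs read below as the same clone printed again.

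The 2 arrays shared little beyond their most extreme probes. Across 5309 probes, which are not independent replicates and share print positions, Pearson's correlation was 0.232 and Spearman's 0.149, and 54.4% of probes had the same sign. With the arrays of other regimes wired like it, array 2 correlated at 0.339 (2 h high), 0.497 (8 h low) and 0.165 (8 h high). Array 1 correlated with those wired like it at 0.0951, 0.21 and 0.378 in the same order of regimes. Print position also moved with the values. The medians of the 8 print blocks ran from -0.07 to 0.07 on array 1 and from -0.20 to 0.15 on array 2, with block 1 at -0.07 and -0.17 and block 8 at 0.02 and 0.15.

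**Figure D1:**
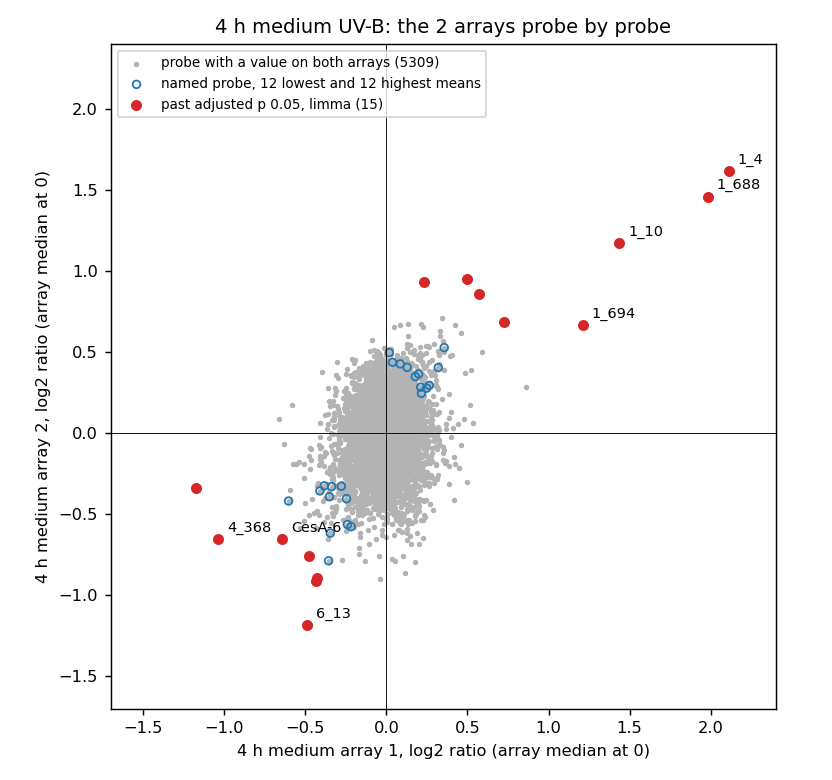
Each point is a probe, with its log2 ratio on 4 h medium array 1 on the x axis and on array 2 on the y axis, array medians at 0. Red points are the 15 probes past an adjusted p of 0.05 in limma and blue rings the 24 named probes with the lowest and highest means; most of the 5309 probes form a cloud around 0, and the pair 1_4 and 1_688 lies farthest out on both arrays.

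Each probe's mean was tested against 0 with limma, in a joint fit of the 8 arrays of the 4 regimes with a term for channel orientation and Benjamini-Hochberg adjustment. Of 5287 probes tested, 15 passed an adjusted p of 0.05 (0.284%), of which 8 rose (0.151%) and 7 fell (0.132%), and 262 had an unadjusted p under 0.05 (4.96%). Among 379 named probes, 1 passed, and it fell. The smallest mean ratio called in this fit was 0.582 in size, and the median SE over probes was 0.135. SEs ran only from 0.13 to 0.218, as limma drew most of each spread from all probes. The prior had 27.57 degrees of freedom, against at most 3 residual ones. An SE given here is thus not a measure of the gap between a probe's own 2 arrays. With scale normalization 79 rose and 144 fell, and with array weights 277 and 440. Leaving out 1 array left 5 probes in 4 cases, with 3 higher and 2 lower without 4 h medium array 1, 5 and 0 without array 2, and 4 and 1 without either 8 h high array. The 2 fits without an 8 h high array are the same for the 4 h medium mean, as the array left is fitted exactly. They are thus 1 result. Without the orientation term 3 passed, all higher, and with oppositely wired arrays turned in sign 0 passed, with 16 at an unadjusted p under 0.05.

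The probe that rose most was 1_4, which is unnamed. It stood at 2.11 on array 1 and 1.62 on array 2, a mean of 1.86 ± 0.15 (SE, n = 2 arrays) or 3.64-fold (adjusted p = 1.03e-09, limma). Probe 1_688 stood at 1.98 and 1.46, a mean of 1.72 ± 0.15 (SE) or 3.30-fold (adjusted p = 1.73e-09, limma). Both were also high in the other regimes, 1_4 at 1.29 and 1.57 at 2 h high, 2.19 and 2.15 at 8 h low, and 2.07 and 2.72 at 8 h high. The 4 h medium values of 1_4 lay within the range of the other 6 arrays.

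Probe 1_10 came next, at 1.44 and 1.17, a mean of 1.30 ± 0.15 (SE) or 2.47-fold (adjusted p = 1.56e-06, limma), and probe 1_694 stood at 1.21 and 0.67, a mean of 0.94 ± 0.15 (SE, adjusted p = 0.000745, limma). Both were above 0 on all 8 arrays. With array 1 left out, the fitted estimate of 1_694 was 0.87. It differs from the array 2 value of 0.67 because the fit includes the orientation term.

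The other risers lay below 1 on both arrays. Probe 7_2 stood at 0.72 and 0.69 and probe 7_686 at 0.57 and 0.86, and both had values of similar size at 2 h high (0.59 and 0.83, 0.62 and 0.73) and at 8 h high (0.79 and 0.68, 0.73 and 0.79). Probe 1_136 stood at 0.50 and 0.95 at 4 h medium, against -0.22 and -0.25 at 2 h high and 1.16 and 1.57 at 8 h high. It was higher at 4 h medium than at 2 h high by 0.96 (adjusted p = 0.000655, limma). Probe 6_204 stood at 0.23 and 0.93 with an adjusted p of 0.0493 (limma), and it lost its call under 15 of the alternatives.

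Among the probes that fell, 4_368 was lowest, at -1.04 and -0.65, a mean of -0.85 ± 0.14 (SE, adjusted p = 0.00105, limma). It was as low at 2 h high (-1.05 and -0.69), whereas the 8 h arrays had both signs. Probe 6_13 stood at -0.49 and -1.18 (adjusted p = 0.00109, limma), the second value from 1 spot, and 6_697 at -0.43 and -0.91. Both were below 0 on every array on which they had a value. Probe 1_218 stood at -1.18 and -0.34 and 1_401 at -0.43 and -0.89, so that their arrays differed by more than the smaller of the 2 values.

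Probe 2_696 stood at -0.47 and -0.76 at 4 h medium, against 1.16 and 0.86 at 2 h high, and had no value at 8 h. The difference between the regimes was -1.62 (adjusted p = 8.45e-07, limma). It was measured from 2 spots on array 1 and 1 spot on array 2.

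**Figure D2:**
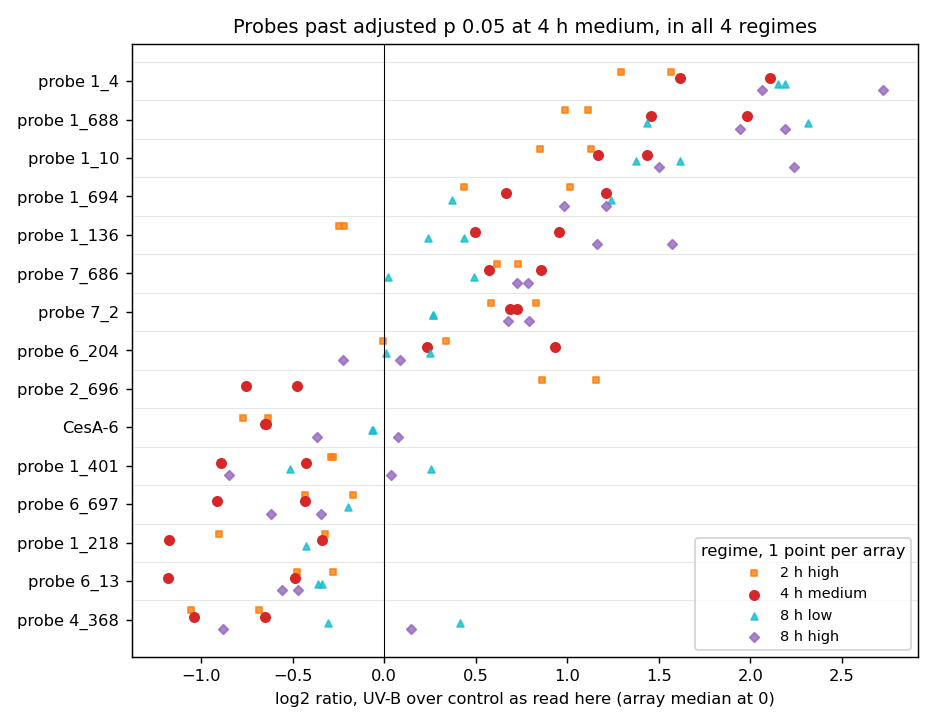
Log2 ratios of the 15 probes past an adjusted p of 0.05 at 4 h medium, on the x axis, with 1 point per array for each of the 4 regimes and 1 probe per row. The 4 h medium points of 1_4, 1_688, 1_10 and 1_694 lie among those of the other regimes, whereas 1_136 and 2_696 have the opposite sign at 2 h high.

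The values of several of these probes recurred at a second print position, and these pairs are read here as the same clones printed again. The order of the spots fits source plates of 96 wells, 12 positions in each of 8 blocks, and the values of plates 58, 59 and 60 followed those of plates 1, 2 and 55 well by well. Averaged over the 8 arrays, the 3 pairs of plates correlated at 0.805, 0.647 and 0.817, while the highest correlation among the other 1767 pairs of plates was 0.448 and the median 0.186. In the pair 55 and 60, all 5 pairs of wells with an accession carried the same one. The pairs 1 and 58 and 2 and 59 rest on the values, and this match was made after they were seen. At 4 h medium, the mean ratios of first and second prints correlated at 0.883 over 191 pairs of wells, with a median difference of 0.0629. Of the 15 calls, 9 lie on these plates, as 4 pairs with both prints called (1_4 and 1_688, 1_10 and 1_694, 7_2 and 7_686, 6_13 and 6_697) and 2_696, whose first print 2_12 stood at -0.93 on array 1 and had no value on array 2. Counting each pair once, the 15 probes come from 11 wells. With the second prints left out of the fit 9 probes passed, 4 higher and 5 lower.

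**Figure D3:**
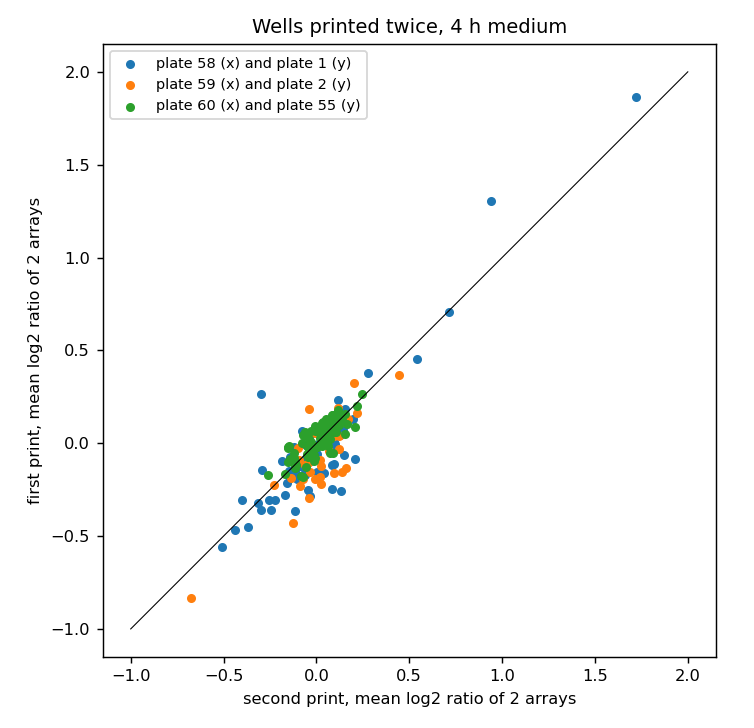
Mean log2 ratio at 4 h medium of the first print (y axis) against the second print (x axis) of wells printed on 2 source plates, 191 pairs with a value on both arrays; the line marks equal values. The pairs lie along the line, with the highest pair at 1.72 and 1.86.

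The named gene that fell was CesA-6, a catalytic subunit of cellulose synthase, the enzyme complex that spins cellulose into the cell wall. Its probe 2_82 stood at -0.64 on array 1 and -0.65 on array 2, a mean of -0.65 ± 0.13 (SE, n = 2 arrays) or 1.57-fold lower (adjusted p = 0.0153, limma). The 3 spots on each array differed by an SD of 0.0270 and 0.0256. In tissue RNA, fewer cells of a type and less of a transcript per cell cannot be told apart. The same probe stood at -0.77 and -0.64 at 2 h high, -0.06 and -0.06 at 8 h low, and -0.36 and 0.07 at 8 h high. The 4 h medium and 2 h high values thus lay together, below the values of the 8 h arrays, but the differences from 8 h low (-0.58, adjusted p = 0.999) and 8 h high (-0.50, adjusted p = 0.56) did not pass in limma.

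A second probe of CesA-6, 5_606, stood at 0.14 and -0.00, so the call belongs to 1 of its 2 probes. The average of both probes was -0.29 (adjusted p = 0.94, limma). The call was also lost without the orientation term (adjusted p = 0.35) and without either 4 h medium array (0.545 and 1.0) or either 8 h high array (0.0866 each), in the same test. The values without either 8 h high array come from the same fit and are 1 result. The other cellulose synthase genes were near 0, with CesA-5 at -0.03 and -0.01, CesA-8 at 0.10 and -0.10 and CesA-9 at -0.01 and -0.16.

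Just outside the threshold lay Agp2, a subunit of ADP-glucose pyrophosphorylase, which makes the sugar donor of starch synthesis. Its probe 4_547 stood at -0.36 and -0.79, a mean of -0.57 ± 0.14 (SE, adjusted p = 0.0647, limma), and its second probe 7_161 at -0.03 and -0.01. With block medians set to 0 the adjusted p of 4_547 was 0.045, and with plate medians set to 0 it was 0.0117. Values of 4_547 in the other regimes were also negative, between -0.10 and -0.63.

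The abscisic acid, stress and ripening gene asr1 (aba1 in the annotation) stood at -0.60 and -0.42 (adjusted p = 0.145, limma). Its values at 2 h high were -0.76 and -0.44, while the 8 h arrays lay between -0.21 and 0.44. The antenna protein gene lhcb5, whose product binds chlorophyll in photosystem II, stood at -0.35 and -0.62 (adjusted p = 0.386, limma) and was negative on all 8 arrays.

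The remaining 8 of the 12 lowest named probes had means between -0.40 and -0.30, and none passed. Their roles were diverse. thi1-2 makes the thiazole part of thiamine. Its probes 1_92 and 3_83 stood at -0.35 and -0.39 and at -0.22 and -0.58. The spots of 3_83 had an SD of 0.313 on array 2. Its other probe 3_650 was positive, at 0.10 and 0.08, as was 3_710, its second print, at 0.01 and 0.20. The plasma membrane aquaporin gene pip1-2 stood at -0.41 and -0.36, and gln4, a glutamine synthetase, at -0.34 and -0.33. The plastid transporter gene pOMT1, for oxoglutarate and malate, stood at -0.38 and -0.33, against 0.19 and 0.23 at 2 h high, a difference of -0.57 that did not pass (adjusted p = 0.0775, limma). ATP-D (-0.24 and -0.56), the phosphate transporter gene pht7 (-0.25 and -0.40, with its second probe at -0.06 and 0.02) and the polygalacturonase gene PG2 (-0.28 and -0.33) complete them. The other PG2 probes measured on both arrays had means between -0.04 and 0.12.

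The highest named probe belonged to ZAG1, a MADS-box gene of the AGAMOUS family of floral regulators, at 0.36 and 0.53, a mean of 0.44 ± 0.13 (SE, adjusted p = 0.357, limma). It stood at 0.01 and 0.13 at 2 h high and at 0.65 and 0.47 at 8 h high. Next was nfa104, a nucleosome assembly factor, at 0.32 and 0.40 (adjusted p = 0.643, limma). The other 10 of the 12 highest had means between 0.23 and 0.28, and none passed. Among them the plasma membrane proton pump gene mha4 stood at 0.26 and 0.29 and the cysteine protease gene ccp1 at 0.22 and 0.25. The acetyl-CoA carboxylase gene ACC1 stood at 0.25 and 0.28 in probe 6_650 and at 0.21 and 0.28 in 6_710, its second print, while its probe 3_605 stood at 0.26 and -0.32. The jasmonate synthesis family gene opr6 stood at 0.13 and 0.41, and the DNA methyltransferase gene dmt101 at 0.02 and 0.50. The ribosomal stalk protein gene RP-P0 stood at 0.09 and 0.43, with its other 2 probes at 0.06 and 0.40 and at 0.16 and 0.16. pfk1 (0.18 and 0.35), m1 (0.04 and 0.44) and LOC100125656 (0.20 and 0.37) were the others.

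Print block moved with this order. Of the 12 lowest named probes 11 lie in blocks 1 to 4, 6 of them in block 1, and of the 12 highest 8 lie in blocks 5 to 8. Over all probes the median of the mean ratios was -0.07 in blocks 1 to 4 and 0.05 in blocks 5 to 8. With block medians set to 0, the probes in block 1 moved up by 0.12, so that asr1 was at -0.39, pip1-2 at -0.26, gln4 at -0.21 and mha4 at 0.40, while CesA-6 in block 2 was at -0.53.

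**Figure D4:**
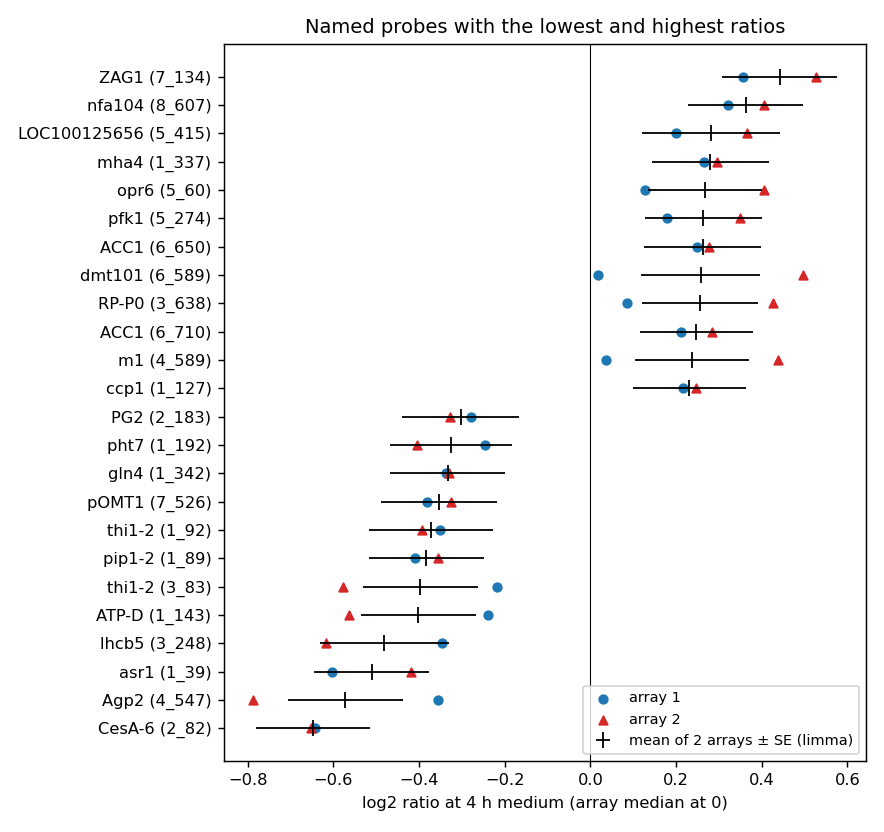
The 12 named probes with the lowest and the 12 with the highest mean log2 ratio at 4 h medium among those with the same sign on both arrays, 1 per row; circles are array 1, triangles array 2, and the tick with its bar is the mean ± SE from limma. CesA-6 at the bottom has both arrays at about -0.65, and dmt101 and m1 are near 0 on array 1.

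Over all named probes, 17 of 379 had an unadjusted p under 0.05 (4.49%), 3 higher and 14 lower, beside 4.96% of all probes, 97 higher and 165 lower. Genes with several probes give a further measure of the error. In 55 genes with 2 or more measured probes the median gap between the lowest and the highest probe was 0.161 and the largest 0.715, that of CesA-6, and the probes of 36 of these genes differed in sign.

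Gene lists fitting a UV-B treated plant were described by their counts and medians, beside a median over all probes of -0.0053. Members past the threshold numbered 1 in the cell wall list (CesA-6) and 0 in each of the others. The cell wall list had 15 measured probes of 12 genes, 9 negative and 6 positive, with a median of -0.07. Beside CesA-6 its largest values were those of EXPB9, an expansin that loosens walls (-0.13 and -0.21, with its second probe at -0.02 and 0.07), the proline-rich protein gene prp2 (-0.06 and -0.22) and the hydroxyproline-rich glycoprotein gene HRGP (-0.14 and -0.10).

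Photosynthesis and chlorophyll genes were negative in 7 of 10 probes, 5 of them on both arrays (27.5% of all probes were negative on both), with a median of -0.08 (-0.08 with block medians at 0). Beside lhcb5, the chlorophyll synthesis gene por stood at -0.10 and -0.49, and the 2 probes of the light-harvesting gene Cab-m7 at -0.15 and -0.27 and at -0.27 and -0.10. On the other side rca1, the activase of Rubisco, stood at 0.07 and 0.38. The Rubisco small subunit gene rbcs1 was near 0, at -0.06 and -0.07, as was psbs1, whose product helps photosystem II shed surplus light as heat, at -0.22 and 0.04.

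Starch and sucrose genes were positive in 5 and negative in 7 of 12 probes, with a median of -0.02. With plate medians at 0 the counts were 7 and 5 and the median 0.02. With block medians at 0 they were 5 and 7, and the median was -0.03. Of the sucrose synthase gene sus1, one probe stood at -0.20 and -0.27 and another at 0.24 and -0.14. The vacuolar invertase gene ivr2 stood at -0.20 and -0.16 in one probe and at -0.02 and 0.20 in the other.

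Chromatin genes, from a list that also sought DNA repair genes and matched none, were positive in 14 of 16 probes, 9 of them on both arrays (26.9% of all probes were positive on both), with a median of 0.09. Of the 16 probes 14 lie in blocks 5 to 8, and with block medians set to 0, 10 were positive and the median was 0.04. With plate medians set to 0, 14 were positive and the median was 0.05. The part of print position in the list's median was not tested further. After nfa104 and dmt101 its highest values were those of mbd111, a methyl-CpG binding domain protein, at 0.10 and 0.33, and nfc103 at 0.07 and 0.21. The centromeric histone gene cenH3 stood at 0.06 and 0.17.

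Protein folding genes were positive in 8 of 9 probes, with a median of 0.08 (0.06 with block medians at 0). The 3 probes of the protein disulfide isomerase gene PDIL1-2 stood at 0.07 and 0.21, 0.06 and 0.07, and 0.22 and 0.21, and the calreticulin gene CRT at 0.13 and 0.13. The exception was calnexin, CNX, which with calreticulin retains misfolded glycoproteins in the endoplasmic reticulum, at -0.21 and -0.39.

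Defence and protease genes were split, 4 positive and 5 negative of 9, with a median of -0.08. It was -0.02 with block medians at 0 and -0.08 with plate medians at 0. The chitinase gene chn1 stood at 0.10 and -0.31, and PR-5, a thaumatin-like pathogenesis protein, at -0.05 and -0.11. Phenylpropanoid genes, which lead to flavonoid sunscreens and lignin, had 3 measured probes, with a median of 0.07. It was -0.02 with plate medians at 0 and 0.05 with block medians at 0. PAL1, the entry enzyme, stood at 0.31 and -0.03, and the probes of cncr1, of lignin synthesis, at 0.07 and -0.21 and at -0.04 and 0.17. The means of 7 oxidative stress probes lay between -0.11 and 0.04, but 0 were positive and 2 negative on both arrays. Sod4A stood at 0.27 and -0.18, the catalase gene cat1 at 0.10 and -0.03 and the glutathione transferase gene gst1 at -0.10 and -0.11.

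Nitrogen genes were negative in 6 of 10 probes, with a median of -0.09 (-0.03 with block and -0.07 with plate medians at 0). Aquaporins were negative in 10 of 15, with a median of -0.05. Cytoskeleton genes had a median of -0.16 over 5 probes (-0.04 with block and -0.11 with plate medians at 0). The tubulin genes tua4 and tub5 stood at -0.21 and -0.23 and at -0.20 and -0.12. Medians were -0.02 over 6 ribosome and translation probes (0.00073 with block medians at 0) and -0.05 over 7 MADS-box and floral probes. They were -0.03 over 4 hormone probes (0.02 with block medians at 0) and 0.07 over 5 small GTPase probes (-0.01 with block medians at 0). With plate medians at 0 they were -0.04 for ribosome and translation, -0.03 for hormones and 0.07 for small GTPases. The patterns of the ribosome and translation list did not match RP-P0, whose 3 probes had means from 0.16 to 0.26. The 2 sulfur and methionine probes had a median of 0.04. Genes listed for seed were measured by 7 endosperm and embryo probes, with a median of -0.01. Those for the male flower were measured by 5 pollen and tassel probes, with a median of -0.11 (0.01 with block and -0.10 with plate medians at 0).

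**Figure D5:**
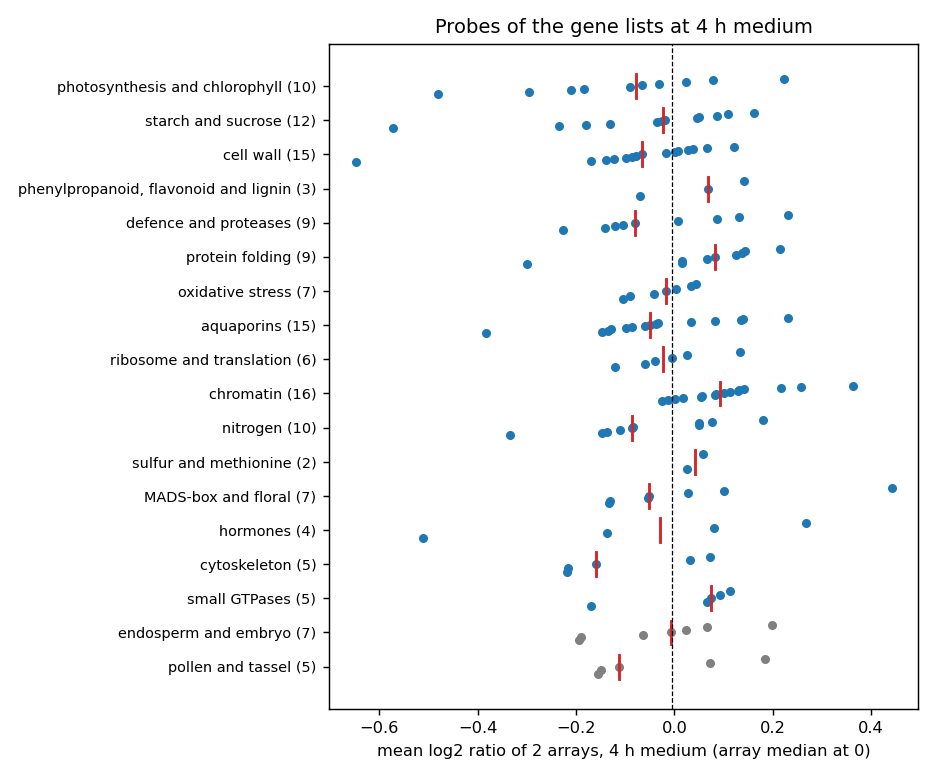
Mean log2 ratio of the 2 arrays at 4 h medium, x axis, for every measured probe of each gene list, with the number of probes in brackets; red bars are list medians, the dashed line is the median over all probes, and grey points are the seed and the pollen and tassel lists. CesA-6, Agp2, asr1 and lhcb5 have the 4 lowest values and ZAG1 the highest.

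The 4 h medium regime differed most from 2 h high. In limma 342 of 5159 probes passed (6.63%), of which 9 were higher (0.174%) and 333 lower (6.45%) at 4 h medium. Of these 342, 299 (87.4%) lay within 0.25 of 0 at 4 h medium, and their median was -0.03 at 4 h medium and 0.94 at 2 h high. Most of all probes lay as near 0 at 4 h medium, where the median size of a mean ratio was 0.0925, so this share is no trait of the 342. Of the 342, 82 lie on source plates 37 and 39, which hold 63 and 65 of the 5159 probes tested, against 5031 on the other plates. With plate medians set to 0, 220 passed (34 higher and 186 lower). Without either array of the 2 regimes 174 to 198 passed, and 1350 did when the fit was limited to the 4 arrays of both regimes, 505 of them higher.

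Among 373 named probes tested against 2 h high, 15 passed, and all 15 were lower at 4 h medium. The MADS-box gene zmm16 stood at -0.03 and 0.23 at 4 h medium, against 1.75 and 1.94 at 2 h high, a difference of -1.74 ± 0.19 (SE, adjusted p = 3.14e-07, limma). The Rab-type small GTPase gene ypt1, of vesicle traffic, stood at -0.09 and 0.27 at 4 h medium, against 2.29 and 1.61 at 2 h high, a difference of -1.86 ± 0.21 (SE, adjusted p = 5.06e-07, limma). For both genes the 2 regimes did not overlap, which their choice by smallest p makes likely.

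The seed storage globulin gene glb1 stood at -0.03 and -0.35 in probe 3_682 at 4 h medium, against 1.46 and 0.98 at 2 h high (difference -1.41, adjusted p = 4.41e-06, limma). The nitrite reductase gene NIR, in probe 1_444, stood at -0.00 and 0.10 at 4 h medium, against 1.15 and 1.21 at 2 h high (difference -1.13). The probe 6_370 of ivr2 stood at -0.02 and 0.20, against 1.42 and 1.01 (difference -1.13). Smaller differences of -0.85, -0.83 and -0.79 belonged to OBF1, a bZIP transcription factor, LOC541857 and the beta-glucosidase gene glu1. NIR sits on plate 37 and OBF1 on plate 39, whose probes had medians of 0.09 and 0.03 at 4 h medium, against 0.88 and 0.84 at 2 h high, while the other plates had medians of -0.01 and -0.01. The part of plate in these 2 differences was not tested. Second probes of 4 of these genes did not pass. That of NIR, 2_421, stood at -0.09 and -0.08 at 4 h medium, against -0.16 and -0.03 at 2 h high, and the differences were -0.15 for glb1 (3_662), -0.51 for ivr2 (5_186) and 0.06 for glu1 (3_39).

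Against 8 h low 0 of 4867 probes passed in limma (205 at an unadjusted p under 0.05, smallest adjusted p 0.355). Across probes the 2 arrays of 8 h low had a correlation of -0.363, so that a probe high on one tended to be low on the other. Without 8 h low array 1 the count was 167, of which 158 were higher at 4 h medium, and with scale normalization it was 17.

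Against 8 h high 21 of 5146 probes passed (0.408%), 1 higher (0.0194%) and 20 lower (0.389%) at 4 h medium. The chitinase gene chn1 differed most. Its values were 0.10 and -0.31 at 4 h medium, against 2.70 and 3.20 at 8 h high, a difference of -3.06 ± 0.21 (SE, adjusted p = 6.24e-13, limma) or 8.31-fold. The calnexin gene CNX stood at -0.21 and -0.39 at 4 h medium, against 0.86 and 0.57 at 8 h high, a difference of -1.02 ± 0.20 (SE, adjusted p = 0.00955, limma). Of the 21 probes 18 lay within 0.25 of 0 at 4 h medium, as did most of all probes (median size 0.0925), and none was among the 15 called there. The split was 8 higher and 29 lower with block medians set to 0, 8 and 19 with plate medians set to 0, and 17 and 44 with scale normalization. Leaving out a 4 h medium array left 7 or 8 probes and leaving out an 8 h high array left 1.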

How the data were processed

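Total RNA of maize was compared on spotted arrays, and the 8 arrays of the 4 UV-B regimes were used, grouped by their titles. The authors deposited 1 log ratio per spot. In the sources used here, its direction and any background correction or normalization are not given. The values were read as log2, since repeated deposited values matched the log2 of small whole-number ratios for 12.3% and 21.2% of repeats on the 2 arrays and 0 matched natural log or log10. The tables used here hold no intensities, so no dim spot could be filtered, and the number of arrays limits the precision.

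The median of each array was set to 0 (it was 0.0237 and -0.022 as deposited at 4 h medium) and 3 consecutive spots were averaged as a probe. limma 3.58.1 (R 4.3.3) fitted the 8 arrays with a mean per regime and a probe-wise term for channel orientation, which equals the replicate number. Same-numbered arrays deviated together in all 6 pairs of regimes (0.212 to 0.558). They also share the channel orientation, and the labels state no pairing, so pairing and orientation cannot be told apart. A probe was tested where the compared regimes had a value on every array and 1 to 3 residual degrees of freedom were left. Alternatives covered the orientation term, arrays used, weights, centring, spot filters, probe averaging and sign.

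Symbols came from the array annotation (404 named probes, 329 genes, of which 314 were in the maize reference gene table). Named are the probes past the threshold, the 12 highest and 12 lowest named probes of equal sign on both arrays, up to 8 named probes per contrast, and at most 6 members per list. List symbols were matched to patterns, and 10 false matches were dropped. The regime, its members and the lists were chosen with earlier results of these data known.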

Additional observations from a re-analysis of the deposited data

Results flagged for a closer look

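Differences between regimes past the threshold in the limma contrasts were found in 342 probes for 4 h medium minus 2 h high and in 21 probes for 4 h medium minus 8 h high. The difference itself was tested in each case. Of the 15 named probes past the threshold against 2 h high, the 8 of smallest p differed as follows, by -1.86 for ypt1, -1.74 for zmm16, -1.41 for glb1, -1.13 for NIR, -1.13 for ivr2, -0.854 for OBF1, -0.833 for LOC541857 and -0.79 for glu1. Against 8 h high the 2 named probes past the threshold differed by -3.06 for chn1 and -1.02 for CNX. Both 4 h medium values of these 10 probes were below both values of the other regime. Their choice by p in the same contrasts makes this likely, and the share over all probes was not counted. NIR, glb1, ivr2 and glu1 each had a second probe, which did not pass.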

How the results depend on the processing

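For 4 h medium against control, where 15 probes passed, 56 passed in a fit of its own 2 arrays, 717 with array weights (277 higher, 440 lower), 223 with scale normalization (79 and 144), 3 with no replicate block, 9 with the second prints left out (an alternative added after seeing the data) and 5 to 14 with 1 array left out. Against 2 h high, where 342 passed, the count was 1350 in a fit of the arrays compared, 1627 with array weights (656 higher), 220 with plate medians at 0, 180 with no replicate block and 174 to 401 with 1 array left out. Against 8 h low, where 0 passed, it was 17 with scale normalization, 1 with plate medians at 0, 1 with spot SD at most 0.2 and 0 to 167 with 1 array left out. Against 8 h high, where 21 passed, it was 48 in a fit of the arrays compared, 45 with array weights, 61 with scale normalization, 37 with block medians at 0, 35 with robust moderation, 1 with no replicate block and 1 to 27 with 1 array left out. Calls were then split 8 to 29 higher to lower with block medians at 0 and 17 to 44 with scale normalization. With oppositely wired arrays turned in sign, 0 passed in each of the 4 comparisons. The causes of these shifts were not tested. The fit of the 2 arrays of 4 h medium alone had no orientation term, and its prior gave every probe the same SE of 0.121. Its 56 calls thus follow the size of the mean alone.

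With block medians set to 0, 11 of the 15 calls were kept, with plate medians set to 0 all 15, and with array weights or scale normalization all 15. The 4 h medium arrays then correlated at 0.174 (block) and 0.271 (plate). Turning the sign gave -0.232, which is fixed by the turn. As deposited, the oppositely wired arrays of the other regimes correlated at 0.805 (2 h high), -0.363 (8 h low) and 0.184 (8 h high). With array 2 turned, a mean reverses wherever array 2 has the larger size, so the reversals below are fixed by arithmetic and test nothing. The turn reversed 8 called probes, 6_13 to 0.35, 1_136 to -0.23, 7_686 to -0.14, 6_697 to 0.24, CesA-6 to 0.0048, 1_401 to 0.23, 2_696 to 0.14 and 6_204 to -0.35. It reversed Agp2 to 0.22, lhcb5 to 0.14, ATP-D to 0.16, thi1-2 to 0.18 (3_83) and 0.020 (1_92), pht7 to 0.079 and PG2 to 0.025. It reversed ZAG1 to -0.085, nfa104 to -0.042, LOC100125656 to -0.083, mha4 to -0.015, opr6 to -0.14, pfk1 to -0.085, ACC1 to -0.015 (6_650) and -0.036 (6_710), dmt101 to -0.24, RP-P0 to -0.17, m1 to -0.20 and ccp1 to -0.015. With 1 array left out, the fitted estimate of LOC100125656 ranged from -0.053 (without 4 h medium array 2) to 0.617 (without array 1). These estimates include the orientation term, and its array values themselves were 0.20 and 0.37.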

Other observations

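Among the 9 probes that were higher at 4 h medium than at 2 h high, 4 come from source plate 12, and 3 of these from the same position of different blocks. Probe 2_133 stood at 0.35 and 0.39 at 4 h medium, against -0.31 and -0.16 at 2 h high, a difference of 0.61 (adjusted p = 0.0472, limma). Probe 4_133 stood at 0.48 and 0.37, against -0.33 and -0.32, a difference of 0.75 (adjusted p = 0.0112, limma), and 8_133 at 0.27 and 0.30, against -0.35 and -0.35, a difference of 0.63 (adjusted p = 0.0376, limma). These 3 did not pass against 0 at 4 h medium. The other is 1_136, with a difference of 0.96 (adjusted p = 0.000655, limma). None of the 4 is named, and no gene can be given for them here.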
